A study of Mus musculus with 3 samples.

Results

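The actin and tubulin genes described here are 10 named genes of the 32285 in the files: the cytoplasmic actins Actb and Actg1, the cofilin gene Cfl1, the alpha-tubulins Tuba1a, Tuba1b and Tuba1c, and the beta-tubulins Tubb5, Tubb4b, Tubb2a and Tubb6. They were chosen by symbol, with their level and their cell-to-cell spread in these same libraries already known, so every value below is a description of them. All 10 were found, and all 10 passed a filter of at least 10 CPM (defined below) on average, which 7884 genes passed. The cells, E14 mouse embryonic stem cells of 129/Ola background, were grown on gelatin in serum with leukaemia inhibitory factor. Treatment began a day after seeding: cells received 10 uM tubercidin for 3 h, the same for 6 h, or, as the control, an equal volume of the solvent DMSO for 6 h. Tubercidin is an adenosine analogue. Each condition was 1 library, barcoded in droplets with a 3′ chemistry, so no spread between cultures could be measured and no difference was tested. All intervals are exact 95% intervals of counting error, and they do not say how far a second culture would differ.

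Actin monomers assemble into filaments that shape the cell cortex and carry contraction, and cofilin severs old filaments so that monomers can be reused. Alpha- and beta-tubulin pair into the dimers from which microtubules and the mitotic spindle are built. Cells adjust the synthesis of both families to the amount of free subunit. Free actin monomer holds MRTF coactivators away from the transcription factor SRF, whose binding element, the CArG box, lies at many actin and actin-partner genes. Excess tubulin dimer triggers decay of tubulin mRNA while it is being translated: TTC5 recognises the first residues of the nascent tubulin chain, and SCAPER links it to the CCR4-NOT deadenylase.

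The coding starts are shown because that decay reads them. Each line gives the first 30 bases of the coding sequence, 5′ to 3′, from GENCODE M21 transcripts. Capitals mark the first 4 codons of the tubulins. Letters shared there by 8 alpha-tubulin genes read ATGNGNGANTGN, and by 7 beta-tubulin genes ATGNGNGANATC, where N is any base. The actins are shown for contrast and matched neither pattern.
Tuba1a: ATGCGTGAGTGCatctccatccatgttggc
Tuba1b: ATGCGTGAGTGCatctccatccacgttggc
Tuba1c: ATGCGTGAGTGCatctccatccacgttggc
Tubb5: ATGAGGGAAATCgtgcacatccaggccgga
Tubb4b: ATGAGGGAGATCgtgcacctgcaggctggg
Tubb2a: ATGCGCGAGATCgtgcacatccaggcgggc
Actb: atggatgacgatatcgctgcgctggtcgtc
Actg1: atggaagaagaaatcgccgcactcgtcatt

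Among 21591 coding sequences read on their coding strand, the alpha pattern opened 26 (0.120%) and the beta pattern 11 (0.0509%), the tubulins that gave the patterns included. The patterns were read from these tubulins, so their match was fixed beforehand and says nothing about their levels. The CArG box was searched by name in RefSeq promoter windows (GRCm38.p6) of 250 bases before to 50 bases after a gene's start; it reads the same on both strands. It was found in 535 of 32851 windows (1.63%) and in 1 of the 8 member genes with a window. Actb had no window, so its promoter was not searched. That gene was Actg1, whose box began 90 bases before the RefSeq start, which lies inside the GENCODE gene given below. The 30 bases shown lie at chr11:120348566-120348595 on the minus strand and hold the box with 10 bases on either side. The box is in capitals.
Actg1: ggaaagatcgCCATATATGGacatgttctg

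The control library held 2031 called cells, the 3 h library 2365 and the 6 h library 2926. Their called cells held 104892739, 29892000 and 24681924 UMIs (unique molecular identifiers, which mark single captured RNA molecules), and the median cell held 48452, 11877 and 8004.5 UMIs. Levels are given in counts per 1000000 (CPM), a gene's UMIs scaled to that total over the called cells of that library, so they describe a gene relative to the rest of the captured RNA. Fewer cells expressing a gene and less of its RNA per cell cannot be told apart in such sums. Any 2 libraries shared 1 cell barcode, and none was in all 3. The 8 stem cell markers summed to 4347, 5178 and 3785 CPM in the order control, 3 h, 6 h, with none at 0. Of these Tdgf1 was the highest at 3 h (log2 ratio 0.71) and Esrrb at 6 h (0.92), and Sox2 the lowest at both (-1.34 and -1.33). Among genes of other cell types, 7 fibroblast markers summed to between 0.963 and 2.19 CPM with 2 of the 7 at 0 in each library, 6 primitive endoderm markers to between 6.69 and 10.8 CPM and 5 trophoblast markers to between 9.84 and 15.1 CPM. The 5 markers of 2-cell-like cells summed to at most 0.891 CPM, and 6 mesoderm or muscle markers to between 12.9 and 19.9 CPM, most of it from Des at 11.8, 18.6 and 16.9 CPM.

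As a group, the 10 genes took a slightly larger part of the captured RNA after tubercidin: 0.846% of UMIs in control cells, 1.01% after 3 h and 0.914% after 6 h. They did not move together. At 3 h 2 genes, Tuba1a and Tubb5, were at least 1.5-fold higher than in control cells, where 3.61% of the 7884 genes were, and 1 gene, Cfl1, was at least 1.5-fold lower, where 24.5% were. At 6 h Tuba1c was the 1 gene at least 1.5-fold higher, against 7.06% of genes, and Cfl1 again the 1 gene that much lower, against 16.9%. No member was 2-fold higher or lower than the control at either time; among all genes 0.888% were higher and 5.54% lower at 3 h, and 2.33% higher and 4.41% lower at 6 h. For this rule a ratio was taken on the log2 scale after adding 1 CPM.

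Any log2 ratio above 0 was found for 7 of the 10 genes at 3 h and for 6 of the 10 at 6 h, where 27.4% and 39.7% of all genes lay above 0. The median log2 ratio of the 10 was 0.25 at 3 h and 0.03 at 6 h, beside -0.27 and -0.12 over the 7884 genes. Because the median gene was below 0 on this scale, 2 scalings that centre the genes instead, median-of-ratios and TMM factors, moved the median of all genes by 0.27 and 0.26 at 3 h and by 0.12 and 0.12 at 6 h. With the first of these Actb and Tuba1c also passed 1.5-fold at 3 h, Actb passed it at 6 h, and Cfl1 no longer passed it at 3 h. By that scaling 807 of the 7884 genes were higher and 781 lower at 3 h, and 890 higher at 6 h. The split of all genes past 1.5-fold moved too: 12.9% of them were higher at 3 h by CPM, and 50.8% and 48.2% with the centred scalings. At 6 h the figures were 29.4%, 49.0% and 47.1%. Counted per cell with no scaling, all 10 genes were lower: from 2.53-fold (Tuba1a) to 6.48-fold (Cfl1) at 3 h, and from 3.98-fold (Tuba1c) to 12.2-fold (Cfl1) at 6 h. So were nearly all genes: 7850 of 7884 were at least 1.5-fold lower at 3 h and 7853 at 6 h. On that scale the median log2 ratio of the 7884 genes moved by -1.96 and -2.51, and the part of sequencing depth in it was not tested.

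**Figure D1:**
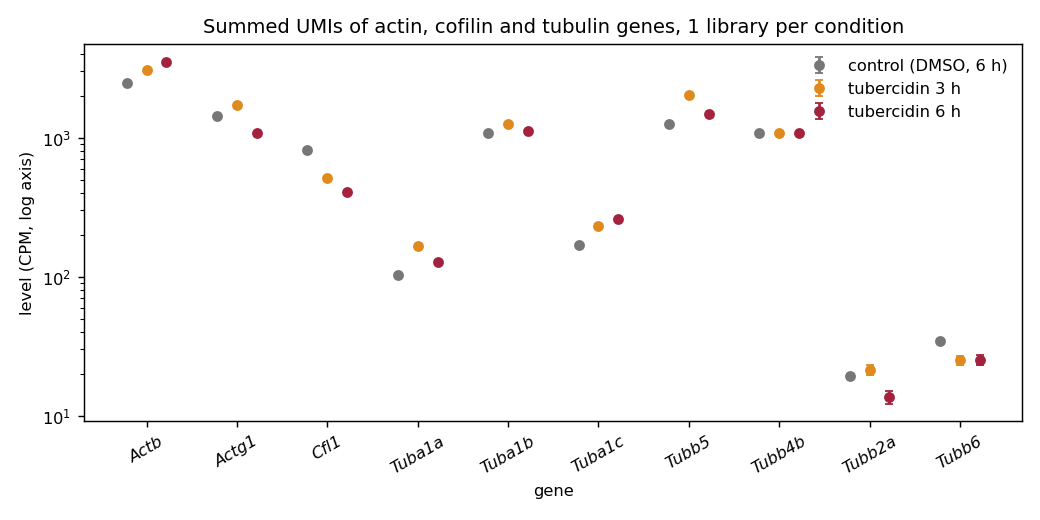
Level of each gene in CPM on a log axis, 1 point for each library (grey control, orange 3 h, red 6 h), with bars for the 95% counting interval. Cfl1 stood lower at each time (814, 513 and 408 CPM), Actb stood higher at each time (2484, 3080 and 3531 CPM), and Tubb4b lay between 1078 and 1085 CPM in all 3.

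The pair of cytoplasmic actins parted at 6 h. Actb (ENSMUSG00000029580, GRCm38 chr5:142903115-142906754, minus strand, 6 exons) encodes beta-actin, the main cytoplasmic actin of most cells. It stood at 2484 CPM in control cells (260554 UMIs), 3080.0 CPM after 3 h (92067 UMIs) and 3531 CPM after 6 h (87157 UMIs). The order was control, 3 h, 6 h, and none of the 3 counting intervals met. That was 1.24-fold (1.23 to 1.25) higher than the control at 3 h and 1.42-fold (1.41 to 1.43) higher at 6 h.

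Actg1 (ENSMUSG00000062825, chr11:120345690-120348542, minus strand, 6 exons) encodes gamma-actin, which differs from beta-actin in a few residues near its start. Its level was 1422 CPM in control cells, 1725 CPM after 3 h and 1089 CPM after 6 h. The 3 h library was the highest and the 6 h library the lowest, again with no intervals meeting. It was 1.21-fold (1.2003 to 1.22) higher than the control at 3 h, 1.31-fold (1.29 to 1.32) lower at 6 h, and 1.58-fold (1.56 to 1.61) lower at 6 h than at 3 h. Between 3 h and 6 h, Actg1 and Tubb2a were the 2 members past 1.5-fold lower, where 1.67% of genes were, and none was that much higher, where 8.51% were. A log2 ratio above 0 between those times was found for 4 of the 10 members and 67.6% of genes, and a 2-fold higher level for 0 members and 1.64% of genes.

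A share within a family needs no scaling to the library, so it does not depend on the choice above. Actb made up 63.6% (63.4 to 63.7) of the UMIs of the 2 actins in control cells, 64.1% (63.9 to 64.4) after 3 h and 76.4% (76.2 to 76.7) after 6 h. Over 6 other settings of the cell call, doublets, cell weighting and free RNA this share stayed between 63.0% and 63.6% in control cells, 63.3% and 64.2% after 3 h, and 76.2% and 76.5% after 6 h. The sum of both was 3906 CPM in control cells, 4805 CPM after 3 h and 4620 CPM (4619.94) after 6 h, 1.23-fold and 1.18-fold higher than the control. The summed level was 1.04-fold lower at 6 h than at 3 h, while the share of Actb was 64.1% and 76.4%. The coding sequences of the 2 genes matched at 88.6% of 1125 bases, and their 3′ untranslated regions, which a 3′ library mostly reads, at 41.0% of aligned positions. Actl6a and Actr1a, actin-related proteins of chromatin remodelling and dynactin, stood at 158, 199 and 186 CPM and at 35.3, 36.8 and 43.4 CPM. Actr1b, another dynactin subunit, had log2 ratios of -0.14 and -0.26. The muscle actins were at or near 0: Acta1 at no more than 0.608 CPM, Acta2 at no more than 0.234 CPM and Actc1 at 0.00953 CPM in control cells with no UMI after tubercidin.

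**Figure D2:**
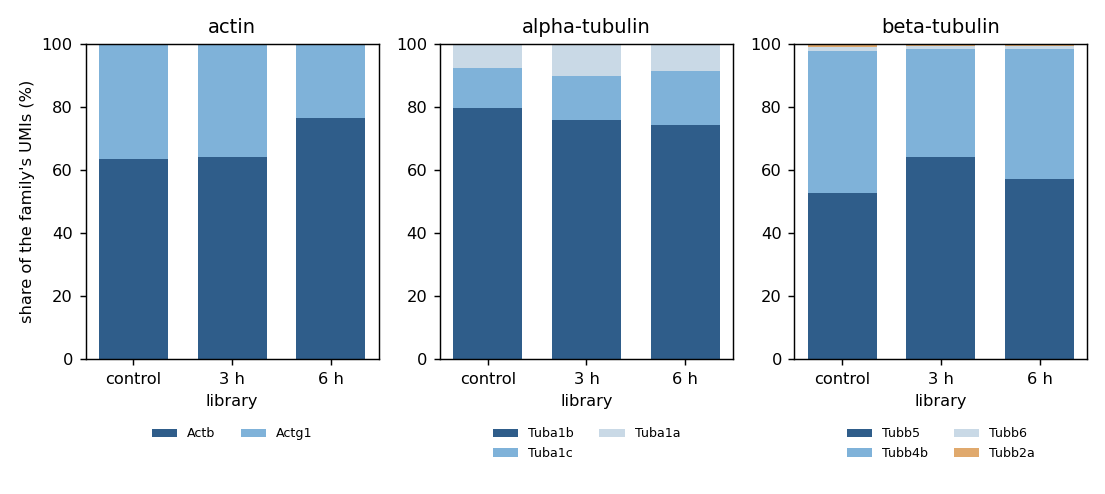
Share of each gene in the UMIs of the members of its family, in percent, as stacked bars for the control, 3 h and 6 h libraries. Actb took 63.6%, 64.1% and 76.4% of actin UMIs; Tubb5 took 52.7%, 64.3% and 57.0% of the UMIs of the 4 beta-tubulins.

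Cfl1 had the lowest log2 ratio of the 10 genes at both times. Cfl1 (ENSMUSG00000056201, chr19:5490455-5495201, plus strand, 4 exons) encodes cofilin-1, the filament-severing protein of non-muscle cells. It stood at 814 CPM in control cells, 513 CPM after 3 h and 408 CPM after 6 h, so the libraries lay in order of exposure with no intervals meeting. It was 1.59-fold (1.56 to 1.61) lower at 3 h and 1.99-fold (1.95 to 2.04) lower at 6 h. At 3 h this lay within the bulk of all genes, between the 10th and 90th percentiles of -0.85 and 0.32 on the log2 scale; at 6 h it lay below the 10th percentile, -0.75. The ratio against the control stayed below 0 under all 11 alternatives, from -0.39 to -0.71 at 3 h and from -0.87 to -1.04 at 6 h when UMIs per cell are set aside.

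Of 10 measured genes of actin turnover and monomer binding, 0 were at least 1.5-fold higher and 3 were at least 1.5-fold lower at 3 h; at 6 h these were 0 and 5. Of all genes 3.61% and 7.06% were that much higher, and 24.5% and 16.9% that much lower. The median log2 ratios of the list were -0.51 and -0.52, beside -0.27 and -0.12 over all genes. Profilin-1 (Pfn1), which loads monomers onto growing filament ends, was the lowest of them, at 594, 275 and 178 CPM (log2 ratios -1.11 and -1.73). Destrin (Dstn), a close relative of cofilin, stood the other way at 611, 680 and 850 CPM (679.58 and 849.853; log2 ratios 0.15 and 0.48). Wdr1, which helps cofilin take filaments apart, was the highest of the list at 3 h, with a log2 ratio of 0.25.

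Nucleation genes, which start new filaments, lay nearer the background. Among all genes 3.61% were 1.5-fold higher and 24.5% lower at 3 h, and 7.06% higher and 16.9% lower at 6 h. Of 19 genes of the Arp2/3 and WAVE complexes and the formins, 0 were 1.5-fold higher and 4 lower at 3 h, and 1 higher and 1 lower at 6 h, with medians of -0.34 and -0.23. Arpc4, an Arp2/3 subunit, stood at 83.2, 120.2 and 146 CPM (log2 ratios 0.53 and 0.80), and Wasl, an activator of that complex, had log2 ratios of -0.79 and -0.63. Of 13 capping, cross-linking and membrane-linking genes, 0 and 1 were higher and 2 and 1 lower, with medians of -0.32 and 0.03. The capping subunit Capza2 had the lowest values, -0.75 and -0.94, and vinculin (Vcl) was the highest at 3 h with 0.08. Of 9 tropomyosin and non-muscle myosin genes, 1 and 0 were higher and 1 and 1 lower, with medians of -0.31 and 0.08. The myosin light chain gene Myl6 stood at 622, 984 and 909 CPM; the heavy chain Myh10 had the lowest ratio at 3 h, -0.67, and the light chain Myl12a at 6 h, -0.82.

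The SRF and MRTF list held 18 genes, of which 9 passed the filter. At 3 h 0 were 1.5-fold higher and 2 lower, at 6 h 1 higher and 1 lower, and the medians were -0.16 and 0.09. Shares of all genes were 3.61% higher and 24.5% lower at 3 h, and 7.06% higher and 16.9% lower at 6 h. Srf itself was below the filter, at 3.94, 3.04 and 2.67 CPM. Its coactivator genes were Mrtfa, at 37.2, 22.2 and 30.6 CPM (log2 ratios -0.72 and -0.28), and Mrtfb, at 27.4, 16.6 and 27.4 CPM (-0.69 at 3 h, with 6 h and control levels equal to the decimal given). Filip1l stood at 9.86, 11.2 and 25.8 CPM (log2 ratio 1.30 at 6 h), and Tagln2, a transgelin, was the highest at 3 h with 0.37. The calponin Cnn2 was the lowest at 6 h, with -0.67.

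**Figure D3:**
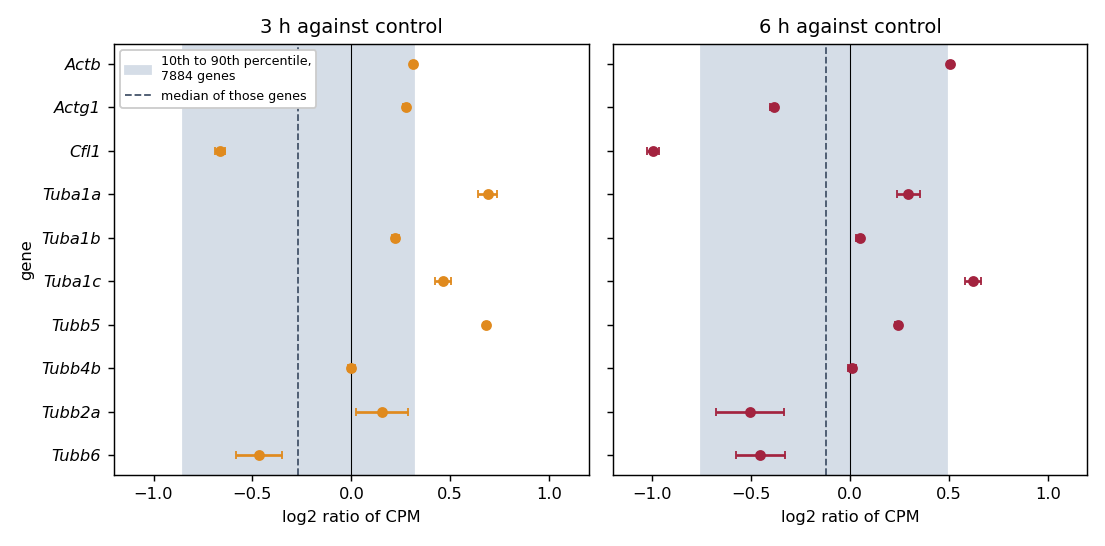
Log2 ratio of CPM against the control for each gene at 3 h (left) and 6 h (right), with bars for the 95% counting interval; the shaded band spans the 10th to 90th percentile of 7884 genes and the dashed line is their median. Tuba1a, Tuba1c and Tubb5 lie right of the band at 3 h, Actb and Tuba1c right of it at 6 h, and Cfl1 left of it at 6 h.

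The 3 alpha-tubulins were all above the control at both times by CPM and with the centred scalings, and all below it in UMIs per cell. Tuba1b (ENSMUSG00000023004, chr15:98931425-98934565, minus strand) stood at 1075 CPM in control cells, 1255 CPM after 3 h and 1112 CPM after 6 h. It was 1.17-fold (1.15 to 1.18) higher at 3 h and 1.03-fold (1.02 to 1.05) higher at 6 h. Tuba1a (ENSMUSG00000072235, chr15:98949837-98953703, minus strand), the alpha-tubulin best known from young neurons, stood at 104, 167 and 127 CPM. It was 1.61-fold (1.56 to 1.67) higher at 3 h and 1.23-fold (1.18 to 1.28) higher at 6 h, so the 3 h library was highest.

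Tuba1c (ENSMUSG00000043091, chr15:99029891-99038110, plus strand) stood at 169, 232 and 259 CPM, in order of exposure. It was 1.38-fold (1.34 to 1.42) higher at 3 h and 1.54-fold (1.49 to 1.58) higher at 6 h. The intervals of the 3 libraries did not meet for any of these alpha-tubulins. As a share of the UMIs of these 3 alpha-tubulins, Tuba1b made up 79.8%, 75.9% and 74.2% and Tuba1c 12.5%, 14.0% and 17.3%, in the order control, 3 h, 6 h. Tuba1a made up 7.68%, 10.1% and 8.47%.

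These splits carry an uncertainty that no counting interval holds. The 3 genes lie close together on chromosome 15, their coding sequences matched at between 97.1% and 98.3% of positions, and their 3′ untranslated regions are only 197 (Tuba1a), 157 (Tuba1b) and 101 (Tuba1c) bases long and matched at 34.0% to 38.6%. A read that falls in the coding part may fit more than 1 of them, and how such reads were treated is not given in the sources used here. The sum of the 3 does not depend on which of them such a read was counted for. It would still lack any such reads that were left out. This sum was 1348 CPM in control cells, 1654 CPM after 3 h and 1498 CPM after 6 h, 1.23-fold and 1.11-fold higher than the control.

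The 4 beta-tubulins went separate ways. Tubb5 (ENSMUSG00000001525, chr17:35833921-35838306, minus strand, 4 exons) is the main beta-tubulin of dividing cells. It stood at 1262 CPM in control cells, 2026 CPM after 3 h and 1492 CPM after 6 h. The 3 h library was highest and the control lowest, with no intervals meeting: 1.61-fold (1.59 to 1.62) higher at 3 h and 1.18-fold (1.17 to 1.196) at 6 h. From 3 h to 6 h it was 1.36-fold (1.34 to 1.38) lower.

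Tubb4b (ENSMUSG00000036752, chr2:25222160-25224702, minus strand, 4 exons), a broadly expressed beta-tubulin, differed least between libraries of the 10 members. It stood at 1078.5 CPM in control cells, 1078 CPM after 3 h and 1085 CPM after 6 h, ratios of 0.999 (0.987 to 1.01) and 1.01 (0.993 to 1.02), and the 3 libraries could not be ordered beyond counting error. That holds on the CPM scale only: the centred scalings moved it up with every other gene, to at most 0.28 on the log2 scale at 3 h and 0.14 at 6 h. As a share of the UMIs of the 4 beta-tubulin members, Tubb5 made up 52.7% (52.5 to 52.9) in control cells, 64.3% (64.0 to 64.6) after 3 h and 57.0% (56.6 to 57.4) after 6 h. Tubb4b made up 45.1%, 34.2% and 41.5%. The coding sequences of this pair matched at 82.2% of positions, and their 3′ untranslated regions are 1061 bases long in Tubb5 and 148 bases in Tubb4b.

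Tubb2a and Tubb6 were minor. Tubb2a (ENSMUSG00000058672, chr13:34074274-34078007, minus strand), a beta-tubulin of neurons, stood at 19.2 CPM (2013 UMIs), 21.4 CPM (639 UMIs) and 13.5 CPM (334 UMIs). It was 1.11-fold (1.02 to 1.22) higher at 3 h and 1.42-fold (1.26 to 1.60) lower at 6 h. Tubb6 (ENSMUSG00000001473), a minor beta-tubulin isotype, stood at 34.5 CPM (3620 UMIs), 24.99 CPM (747 UMIs) and 25.2 CPM (622 UMIs). It was 1.38-fold (1.28 to 1.496) lower at 3 h and 1.37-fold (1.26 to 1.49) lower at 6 h, and its treated libraries did not differ from each other beyond counting error. The 4 beta-tubulins summed to 2394, 3150 and 2616 CPM (3149.84 at 3 h), 1.32-fold higher than the control at 3 h and 1.09-fold higher at 6 h. The 3 alpha-tubulin members held 36.0%, 34.4% and 36.4% of the UMIs of the 7 tubulin members. The 2 actins held 51.1%, 50.004% and 52.9% of the UMIs of actin and tubulin members combined. Tuba4a, Tubb2b and Tubb3, described below, are not counted in these shares or in those within a family.

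Of 13 further tubulin genes, 4 passed the filter, and none of these was 1.5-fold lower. At 3 h 2 were that much higher and at 6 h 1, with medians of 0.58 and 0.11. Among all genes 3.61% and 7.06% were that much higher, and 24.5% and 16.9% that much lower. Tuba4a, an alpha-tubulin from another locus, stood at 82.7, 162 and 144 CPM (log2 ratios 0.96 and 0.79). Tubb3, the neuronal beta-tubulin, stood at 94.0, 144 and 102 CPM, and Tubb2b at 229, 335 and 248 CPM. In these 2, as in Tubb5, Tuba1a and Tuba1b, the 3 h library was highest. Gamma-tubulin (Tubg1), which seeds microtubules and is not a dimer subunit, had log2 ratios of 0.14 and -0.17.

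The lists of factors that act on tubulin had medians on both sides of the median gene, which stood at -0.27 and -0.12. Past 1.5-fold, 3.61% of all genes were higher and 24.5% lower at 3 h, and 7.06% higher and 16.9% lower at 6 h. Of 9 genes of tubulin mRNA autoregulation, 0 were 1.5-fold higher at either time, and 3 at 3 h and 2 at 6 h were that much lower, with medians of -0.44 and -0.17. Ttc5 stood at 34.7, 21.4 and 27.2 CPM (log2 ratios -0.67 and -0.34). Scaper had the lowest ratio at 3 h, -0.92, and the deadenylase subunit Cnot11 at 6 h, -0.78, while Cnot8, a deadenylase, was highest at both, with 0.49 and 0.31. Of 15 chaperonin and prefoldin genes, which fold new actin and tubulin, 0 were higher and 2 and 3 lower, with medians of -0.09 and -0.07. The chaperonin subunit Cct5 was highest at 3 h (0.38) and the prefoldin subunit Pfdn5 at 6 h (0.41); Pfdn4 was lowest at 3 h (-0.63) and Pdcl3 at 6 h (-1.13).

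Of 6 tubulin cofactor genes, which build the dimer from its folded subunits, 0 and 1 were higher and 1 and 1 lower, with medians of -0.08 and 0.08. Beside these counts, 3.61% and 7.06% of all genes were higher, and 24.5% and 16.9% lower. Arl2 was highest at both times (0.46 and 0.62) and Tbcc lowest (-0.59 and -1.004). Of 22 microtubule-associated and motor protein genes, 1 and 0 were higher and 3 and 1 lower, with medians of -0.33 and -0.17. The dynactin subunit Dctn2 was highest at both times (0.61 and 0.49); the kinesin Kif5b was lowest at 3 h (-1.01) and the dynein light chain Dynll1 at 6 h (-0.70).

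To compare cells of unlike depth, each cell was thinned at random to 4000 UMIs, which kept 2031 of 2031 control cells, 2243 of 2365 at 3 h and 2642 of 2926 at 6 h. The cut-off for calling a cell was 11033 UMIs in the control library, 2961 at 3 h and 2107 at 6 h. Barcodes from 4000 UMIs up to the control cut-off could thus count as cells only after tubercidin. The Fano factor, a gene's variance across cells over its mean, is close to 1 where only random sampling separates the cells. Actb had a thinned mean of 9.79 UMIs and a Fano factor of 1.57 in control cells, a mean of 11.8 and a factor of 3.11 after 3 h, and a mean of 14.0 and a factor of 2.28 after 6 h. In 19 further draws the factor lay between 1.53 and 1.67, between 2.97 and 3.20, and between 2.16 and 2.28, so the 3 libraries did not overlap over draws. The 10th percentile, median and 90th percentile cell held 5, 9 and 15 UMIs in control cells, 5, 11 and 20 after 3 h, and 8, 13 and 21 after 6 h. At 3 h the lower edge of the cells stayed where it was in control cells while the upper edge lay higher; at 6 h both lay higher.

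Since the Fano factor grows with the mean, the squared coefficient of variation beyond sampling was also taken. For Actb it was 0.0583 in control cells, 0.179 after 3 h and 0.0910 after 6 h. Over 998 genes with a thinned mean of at least 0.5 UMIs in every library, the ratio of the Fano factor to the control was 1.98 for Actb at 3 h, the third highest (rank 3), and 1.45 at 6 h (rank 7), where the median ratio was 1.03 and 1.02. Within a library the Actb factor differed between cells of unlike depth, but not in 1 direction. Splitting the cells of each library into 3 equal bins by UMIs, the Actb factor from the shallowest to the deepest bin was 1.68, 1.32 and 1.41 in control cells, 3.65, 1.97 and 3.39 after 3 h, and 2.49, 1.92 and 2.16 after 6 h. The level of Actb over the same bins was 2388, 2434 and 2565 CPM in control cells, 2571, 2765 and 3469 CPM after 3 h, and 3296, 3434 and 3687 CPM after 6 h. With cells of at most 5% mitochondrial UMIs alone the factor was 1.46, 2.90 and 2.19, so the 3 h library was highest in each bin and under that limit. In the middle bin it lay close to the 6 h library (1.97 and 1.92). The part of depth and of mitochondrial RNA in the value was not tested beyond these values.

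**Figure D4:**
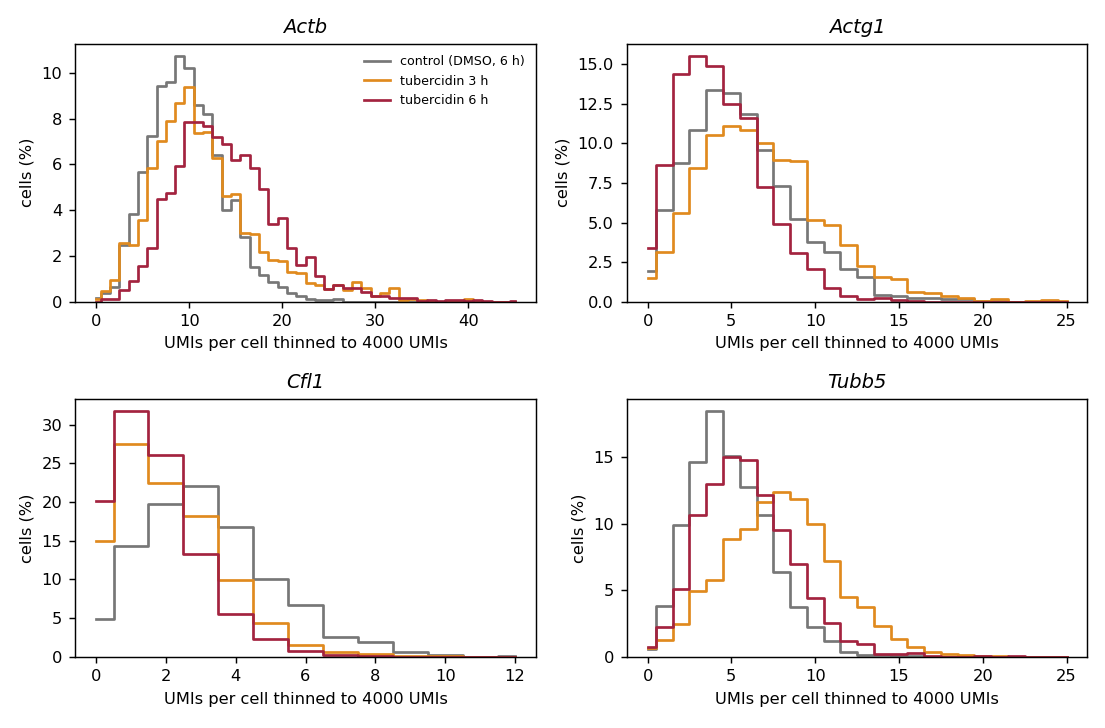
Percent of cells at each UMI number after thinning to 4000 UMIs per cell, for Actb, Actg1, Cfl1 and Tubb5, with lines for the control, 3 h and 6 h libraries. The Actb line at 3 h is the widest of its panel (10th to 90th percentile 5 to 20 UMIs, against 5 to 15 in control cells).

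No other member among the 998 genes had so high a ratio to the control. Actg1, which varied more than Actb among control cells, had Fano factors of 1.87 in control cells, 2.04 after 3 h and 1.53 after 6 h. Its ratio to the control at 6 h, 0.819, was rank 983 of 998. That ratio was taken at a lower mean: the thinned mean of Actg1 was 5.62, 6.83 and 4.35 UMIs. Its squared variation beyond sampling was 0.154, 0.153 and 0.122, and the value expected without a draw was 0.149, 0.144 and 0.136. Tubb5 had Fano factors of 1.12, 1.38 and 1.25, with ratios of 1.23 (rank 59) and 1.11 (rank 91). Cfl1 had 1.16, 1.19 and 1.06, Tuba1b 1.18, 1.21 and 1.15, Tuba1c 1.14, 1.18 and 1.16, and Tubb4b 1.27, 1.30 and 1.27, so these 4 differed less between libraries than Actb did. Tuba1a, Tubb2a and Tubb6 had too few UMIs after thinning to be placed among the 998 genes.

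Counted over the 7 members with enough UMIs, the Fano factor was larger than in control cells for 7 after 3 h, where 68.0% of the 998 genes were, and for 3 after 6 h, where 61.6% were. Over all 10 members the counts were 8 and 4. With 19 further draws they ranged from 6 to 9 and from 4 to 8 of 10, so small differences in spread turned with the draw. Of the 7 members, those draws gave between 6 and 7 after 3 h and between 4 and 5 after 6 h, and the value expected without a draw was 6 and 5, so the count of 3 at 6 h lay below every further draw and nothing is read from it. By excess squared variation, 4 of 7 members were larger at 3 h, where 70.1% of genes were, and 2 of 7 at 6 h, where 62.8% were.

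**Figure D5:**
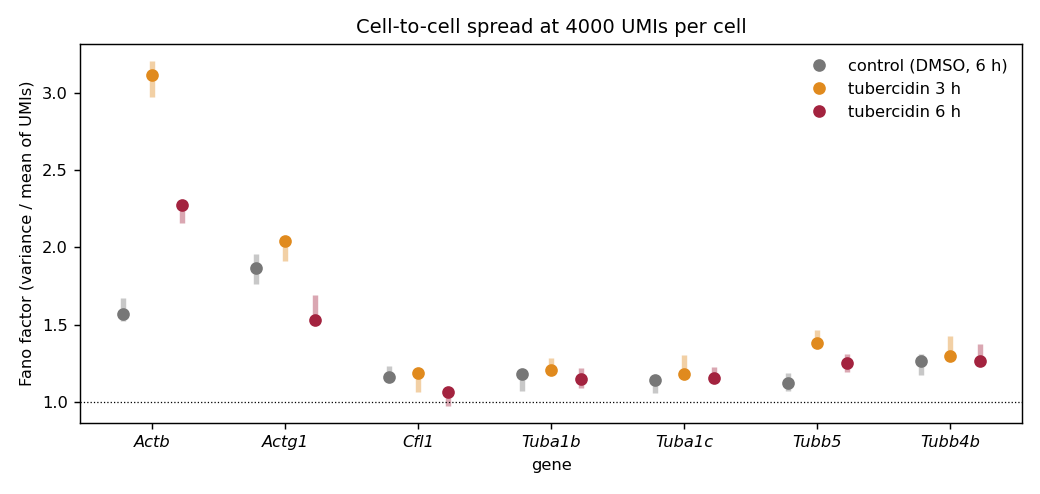
Fano factor of the UMIs per cell at 4000 UMIs for the 7 members with enough UMIs; points are 1 draw, pale bars span 19 further draws, and the dotted line marks 1. Actb at 3 h (3.11) and 6 h (2.28) stands above its control (1.57). For Tuba1c and Tubb4b the pale bars of all 3 libraries overlap. For Cfl1 the bar at 6 h (0.978 to 1.08) lies below that of the control (1.13 to 1.24).

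The spindle is built in mitosis, so members were set against a score of 48 G2/M genes, with the cells of each library in 3 equal bins of that score. Tuba1c had the highest ratio of the 10 members in each library: its mean in the highest bin was 1.504 times that in the lowest (1.32 to 1.72) in control cells, 1.52 times (1.36 to 1.70) after 3 h and 1.40 times (1.28 to 1.54) after 6 h. Tubb4b had ratios of 1.13, 1.04 and 1.05 and Tubb5 of 0.977, 0.896 and 0.932. Actb had 1.01, 1.18 and 1.02, and Actg1 0.930, 0.864 and 0.931. The level of the G2/M genes moved between libraries as well. At 1.5-fold, 0 of 48 were higher than in control cells, and 22 after 3 h and 13 after 6 h were lower. Among all genes 3.61% and 7.06% were higher, and 24.5% and 16.9% lower. Their medians were -0.51 and -0.32, beside -0.27 and -0.12 over all genes. Cdc20 was the highest of them at 3 h (0.31) and Rangap1 at 6 h (0.33), and Mki67 (-1.53) and Cdk1 (-1.56) the lowest. Tuba1c was thus higher after tubercidin while the genes whose score it followed were mostly lower, and the part of cell cycle in its level was not tested.

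Over cells at 4000 UMIs the members were only weakly related, and these values are descriptions over cells that share a library and a fixed total. Among the 45 pairs, Actb and Actg1 had the highest Pearson's r over 2031 control cells, 0.26. Their r was 0.12 over 2243 cells at 3 h and 0.18 over 2642 cells at 6 h. The highest pair at 3 h was Tuba1c and Tubb4b, with 0.17, beside 0.099 in control cells and 0.14 at 6 h. Tuba1b and Tubb5, the alpha- and beta-tubulin with most UMIs in control cells, had 0.10, 0.16 and 0.12. Among 1311 genes, the other members left out, those most like Actb over control cells were Gapdh (0.16), Rpsa (0.15) and Tmsb10 (0.14). For Tuba1b they were H2afz (0.14), Ppia (0.14) and Rpl41 (0.13), and for Tubb5 Rpl32 (0.12), H2afz (0.11) and Rps26 (0.10). Correlations this weak in sparse counts place no gene with any of them.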

How the data were processed

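Single-cell RNA was measured in 3 droplet libraries. The authors deposited raw UMI counts per gene and barcode without a cell filter; Cell Ranger 7.1.0 and the build mm10 are named in the submitters' processing notes, while the annotation and the use of intronic reads are not given in the sources used here. A barcode was called a cell if its UMIs reached 1/10 of the 99th percentile among the 3000 largest barcodes of its library and it showed 500 or more genes and no more than 20% mitochondrial UMIs. Doublets were kept. Counts were summed over cells, scaled to CPM and compared as log2 ratios of CPM + 1. Fold intervals are exact conditional binomial, shares Clopper-Pearson, levels Poisson, all at 95% and for counting error only. With 1 library per group there was no test and no p-value. Genes were called at 1.5-fold and 2-fold among those with a mean of at least 10 CPM.

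The members and the gene lists were chosen with earlier results of these data known. Named are the 10 members; the highest and lowest gene of each list in each comparison with the control; Srf, the MRTF genes and Ttc5; and, for Actb, Tuba1b and Tubb5, the 3 genes most correlated over control cells. Tubb3, Tubb2b and the muscle actins were named after their values were seen. A list gene that this rule would name is not reported here. Gene positions and transcripts came from GENCODE M21 (GRCm38). Other settings were tried for the cell cut-off, doublets, the mitochondrial limit, scaling (TMM from edgeR 4.0.16), free RNA, the pseudocount, the filter, and the depth and draws of the thinning; Fano factors in 3 bins of cells by UMIs and under a 5% mitochondrial limit were added after seeing the data. Statistics were tested on simulated counts. Computation ran in R 4.3.3 and Python 3.11.15 with scipy 1.17.1, numpy 2.4.6 and pandas 2.3.3.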

Additional observations from a re-analysis of the deposited data

Results flagged for a closer look

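Actg1 lay above the control at 3 h, with a log2 ratio of 0.28, and below it at 6 h, with -0.39, each beyond its counting interval. The log2 ratios of Tubb2a were likewise 0.15 (3 h) and -0.47 (6 h). Both are listed because the direction against the same control differed between the times of exposure. With 1 library for each time this difference was not tested, and the 2 comparisons share the control library.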

How the results depend on the processing

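No paired analysis was possible because each condition had 1 library. Of the 20 log2 ratios of members against the control, 18 kept their sign under the 10 alternatives other than UMIs per cell, the exceptions being Tubb4b at both times. With median-of-ratios factors 0 members were 1.5-fold lower and 4 higher at 3 h, and 2 were higher at 6 h. Of the 7884 genes 781 were lower and 807 higher at 3 h, and 890 higher at 6 h. With TMM factors 0 members were lower at 3 h and 2 higher at 6 h, where 817 and 850 genes were. In UMIs per cell 10 members were at least 1.5-fold lower and 0 higher at both times. Of 7884 genes 7850 were that much lower at 3 h and 7853 at 6 h. On that scale Tuba1a was at -1.33 and Tubb5 at -1.35 at 3 h, and Tuba1c at -1.98 at 6 h. Of all genes, 14.0% were 1.5-fold lower at 3 h with no filter, and at 6 h 10.9% with a mean of at least 50 CPM and 9.92% with no filter. Members with a larger Fano factor at 6 h numbered 4, and 7 with the cell cut-off halved or doubled, 7 in the middle and in the highest bin of cells by UMIs, and 4 to 8 over further draws (7 and 8 in the draws furthest from 4). Without thinning they numbered 0 at 3 h and 0 at 6 h, where the control cells were deepest. Apart from these scalings and the unequal depth without thinning, which change the values by construction, the cause was not tested. Depth limits Tuba1a, Tubb2a and Tubb6, whose spread could not be read at 4000 UMIs.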

Other observations

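In each library a few called cells had over 10% mitochondrial UMIs: 26 of the control, 124 after 3 h and 50 after 6 h. Actb stood at 1128 CPM in these cells and 2489 CPM in the remaining control cells, at 1059 and 3115 CPM at 3 h, and at 1664 and 3541 CPM at 6 h. Tubb5 stood at 788 and 1263 CPM, at 735 and 2048 CPM, and at 509 and 1497 CPM. All 10 members were lower in those cells in every library except Tubb2a at 3 h, at 21.9 CPM against 21.4 CPM. The share of all genes lower in those cells was not counted. CPM totals include mitochondrial UMIs, for which these cells were picked, so no trait particular to the members is read from this.

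A band of barcodes with fewer UMIs than any called cell, ending at rank 15000, holds mostly free RNA. It carried Actb at 2170 CPM (2169.74) in the control library, 2928 CPM after 3 h and 3493 CPM after 6 h. Relative to called cells, the level of Actg1 there was 0.648 times as high for the control library, 0.902 after 3 h and 0.885 after 6 h, and Cfl1 at 0.671, 0.881 and 1.02. For these 2 genes it thus lay closer to the level of called cells after tubercidin, as it did for Actb, Tuba1c, Tubb5 and Tubb4b. It also lay closer for Tubb2a and Tubb6, on few UMIs there, and for Tuba1a and Tuba1b at 6 h but not at 3 h. How many of all genes did the same was not counted, so no trait particular to any member is read from this.

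Length of the 3′ untranslated region and ATTTA repeats, a sequence found in many unstable mRNAs, did not line up with direction among the members. Actb (683 bases), Actg1 (700 bases), Cfl1 (1708 bases) and Tubb5 (1061 bases) held 1, 2, 2 and 2 copies of ATTTA and the other 6 members held 0, where 59.9% of 19872 genes held at least 1. These 4 genes include the lowest member at both times, Cfl1, and members above the control at both times, Actb and Tubb5.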
